A study of Homo sapiens with 6 samples.

Results

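Pre-rRNA processing and ribosome assembly factors were examined in K562 cells, a human erythroid leukemia line, after iron chelation. The genes were 60 whose proteins cut, modify and fold pre-rRNA in the nucleolus: 31 of the small-subunit (SSU) processome, 16 of large-subunit (LSU) assembly, 8 core proteins of small nucleolar ribonucleoproteins (snoRNPs) and 5 that act on both subunits or are abundant nucleolar proteins. They were taken by gene name among 62252 genes with annotated transcripts, and all 60 were found. The DMSO group was unmodified K562 cells given the solvent (n = 3), and the Chelator group the same cells given 10 µM 21H7, a cell-permeable iron chelator, with both kept overnight (n = 3). The submitters describe the replicates as biological. Polyadenylated RNA was sequenced, so the pre-rRNA on which these proteins act and the small nucleolar RNAs (snoRNAs) they carry were not analysed here.

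Ribosomes are built in the nucleolus, where RNA polymerase I makes a long precursor that holds the rRNAs of both subunits. The SSU processome forms on the 5′ end of this precursor as it is made, from the UtpA, UtpB, UtpC and MPP10 complexes, the U3 snoRNP and many single factors, and releases the small-subunit precursor, while other factors fold the large-subunit part. Box C/D snoRNPs guide 2′-O-methylation of rRNA and box H/ACA snoRNPs guide pseudouridylation. Many of these genes are known targets of MYC and their mRNA levels follow cell growth.

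The libraries held 78.6 to 101.1 M estimated counts (M, 1e+06). The erythroid markers of K562 cells were present at levels given in TPM (a level per transcript length, scaled to the same sum in each library). Without overlap between the groups, the globins were higher in Chelator, at 3660 to 4050 against 4470 to 4890 for HBG1, 4880 to 5550 against 6670 to 7150 for HBG2 and 2650 to 2910 against 4560 to 5140 for HBE1, and the factors KLF1 (77.8 to 87.4 against 47.7 to 52.9) and TAL1 (48.7 to 61.7 against 42.9 to 46.1) lower. The ranges of GATA1 (164 to 178 against 151 to 164) met at their edge. The part of these shifts in the results below was not tested. CD3E, MS4A1, CD14 and COL1A1, markers of other cell types, stayed at or below 2.1 TPM, and MS4A1 was at 0 in all libraries. The epithelial marker EPCAM stood at 62.3 to 68.8 TPM in DMSO and was lower in Chelator, at 45.6 to 50.3 TPM, without overlap. The difference between length and effective length over transcripts with no counts was 256 to 268 bases in DMSO and 205 to 222 bases in Chelator. This measure depends on fragment length and on any bias correction. For 12550 transcripts the effective length was above the length in at least 1 library, and fragment length itself was not measured. The difference between the groups cannot be told apart from the treatment.

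The mRNAs of nearly the whole set were lower after iron chelation. Of the 60 genes, 56 fell at a DESeq2 adjusted p under 0.05, 2 rose (WDR75 and NPM1, whose direction depends on short transcripts as described below) and 2 did not pass (FBL and RCL1). Over all 25553 genes with an adjusted p, 17.4% fell and 18.5% rose. Among protein-coding genes within the same range of mean normalized count as the 60, 41.2% fell. Every Chelator library lay below every DMSO library for 56 of the 60 genes, against 22.9% of all genes. The median log2 fold change of the 60 was -0.64, a fall of 35.9%, against 0.02 over all genes and -0.12 over protein-coding genes of like count. The fall was moderate for most, as 8 genes passed the study's threshold of a log2 fold change below -1, which 2.46% of all genes did, 34 fell by between 0.5 and 1 and 14 by less than 0.5 on the log2 scale. With trends in GC content and length removed, which lowers the median of all genes to -0.13, 18 passed that threshold, against 4.29% of all genes. In bulk RNA, fewer cells of a kind and less RNA per cell cannot be told apart.

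**Figure D1:**
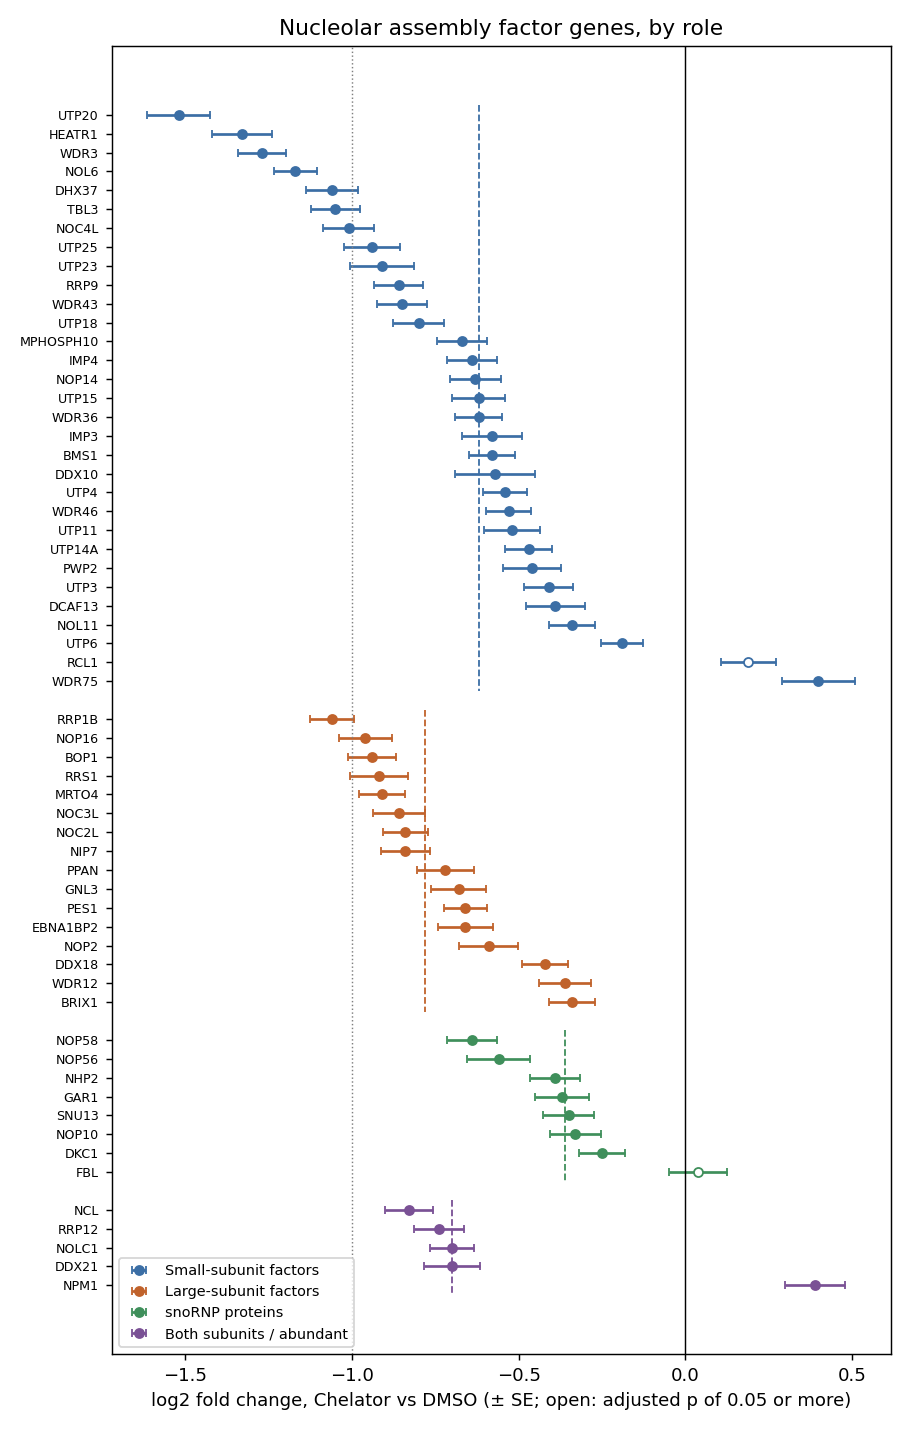
log2 fold change of each of the 60 genes, Chelator against DMSO, from DESeq2 (x axis; bars, SE; 3 libraries per group), grouped by role. Dashed lines mark the median of each role and open circles the genes with an adjusted p of 0.05 or more. Values run from -1.52 for UTP20 to 0.40 for WDR75, and every large-subunit gene lies below 0.

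Taken library by library, the 3 Chelator libraries gave nearly the same picture. The mean over the 60 genes of the log2 ratio to the DMSO mean was 0.02, -0.06 and 0.03 with DMSO, whereas iron chelation gave -0.63, -0.67 and -0.62. For small-subunit factors the Chelator means were -0.66, -0.71 and -0.66, for large-subunit factors -0.75, -0.75 and -0.70, and for snoRNP proteins -0.38, -0.36 and -0.33. Within each Chelator library the snoRNP proteins thus stood closest to DMSO of these 3 roles and the large-subunit factors farthest. DMSO replicate 2 stood lowest of the controls in each role, at -0.12 for the snoRNP proteins, yet no Chelator mean reached it. It also stood farthest from its group over all genes, and without it 56 genes fell and the median was -0.69.

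**Figure D2:**
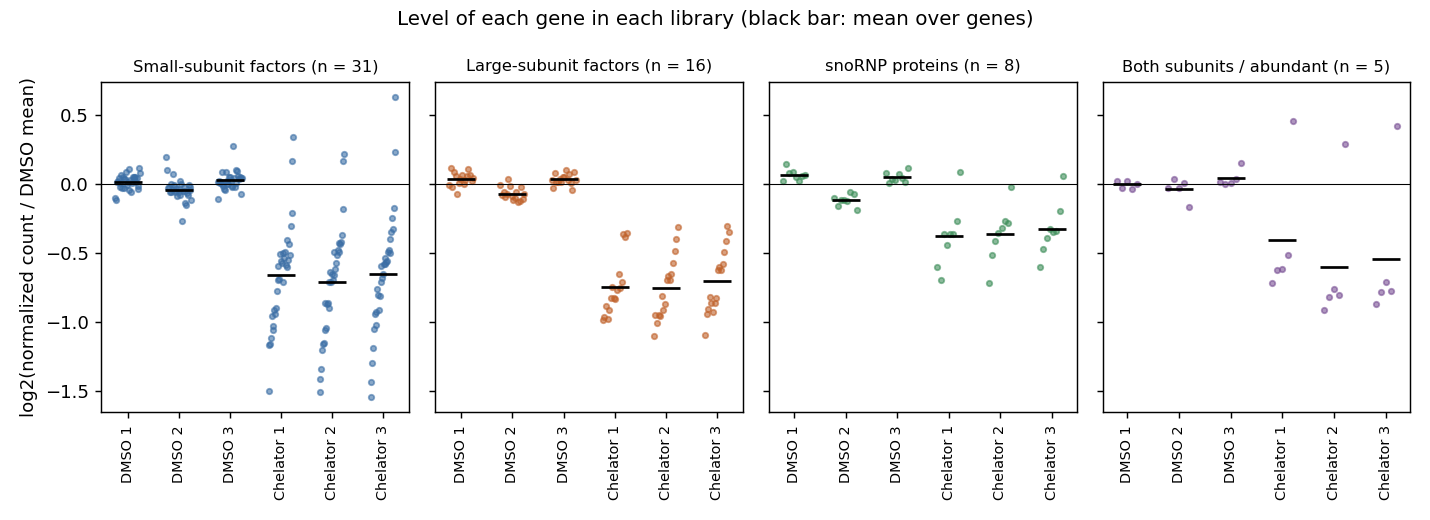
Level of each gene in each of the 6 libraries as the log2 ratio of its normalized count to its DMSO mean (y axis), 1 point per gene, in panels by role. Black bars are means over the genes of that role and lie between -0.33 and -0.75 in the Chelator libraries for the first 3 panels. The points above 0 in Chelator belong to WDR75, RCL1, FBL and NPM1.

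Small-subunit factors had a median log2 fold change of -0.62, with 29 of 31 lower, 1 higher and 1 not passing. UTP20 and HEATR1, both large HEAT-repeat scaffolds, had the largest falls. UTP20, which spans the mature processome, had normalized counts of 8329, 10262 and 8319 in DMSO and 3169, 3150 and 3064 in Chelator. The groups were far apart, and its log2 fold change of -1.52 ± 0.095 (SE, adjusted p = 5.36e-56) was the largest fall of the 60. HEATR1, a UtpA subunit also needed for transcription of rDNA, went from 34303, 39758 and 37377 to 16522, 13939 and 13730 (log2 fold change -1.33 ± 0.091). WDR3, a beta-propeller protein of UtpB, went from 16277, 15858 and 16392 to 7223, 6381 and 6565 (-1.27 ± 0.073). NOL6, a UtpC subunit, went from 14004, 13612 and 13884 to 6369, 5997 and 6049 (-1.17 ± 0.065). In all 4 genes every Chelator library was below every DMSO library. Of the same role, DHX37, the helicase that frees U3 from pre-rRNA (-1.06), TBL3 of UtpB (-1.05) and NOC4L, the partner of NOP14 (-1.01), also passed the study's threshold.

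Genes of every subcomplex of the processome fell. UtpA, which binds the precursor first, had 5 of 6 genes lower with a median of -0.58. Several of its values depend on the length offset. Without the offset UTP15 went from -0.62 to -1.2, NOL11 from -0.34 to -0.6, WDR43 from -0.85 to -1.05 and WDR75 from 0.40 to -0.46. HEATR1 (-1.36) and UTP4 (-0.55) changed little. UtpB had 6 of 6 lower with a median of -0.71, from WDR3 at -1.27 to UTP6 at -0.19. UTP6 did not pass with edgeR's quasi-likelihood test (-0.14, adjusted p = 0.0623). Without the offset WDR36 of UtpB went from -0.62 to -0.95. In the MPP10 complex MPHOSPH10, IMP4 and IMP3 were at -0.67, -0.64 and -0.58, or at -0.65, -1.02 and -0.93 with trends in GC content and length removed. RRP9, the U3-specific protein, fell by 0.86 on the log2 scale. The 14 remaining processome genes, which include helicases, the GTPase BMS1 and the PIN-domain protein UTP23, had a median of -0.58, and 13 of them fell. HEATR1 shares 22.5% of its 31-base words with the opposite-strand gene LGALS8, PWP2 42.9% with a near-identical copy and IMP3 30.9% with SNX33, so their counts are less certain. Whether reads were counted by strand is not given in the sources used here.

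RCL1, a cyclase-like protein that BMS1 brings into the processome, was the small-subunit gene outside this pattern without a passed test. Its normalized counts were 3646, 3267 and 3194 in DMSO and 3773, 3769 and 3960 in Chelator. The Chelator libraries lay above the DMSO ones without overlap, but the log2 fold change of 0.19 ± 0.083 had an adjusted p of 0.0656. The log2 fold change was 0.23 with edgeR's quasi-likelihood test (adjusted p = 0.025) and 0.06 with trends in GC content and length removed (adjusted p = 0.629), and over all alternatives the adjusted p reached 0.633.

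All 16 large-subunit factors fell, from RRP1B at -1.06 to BRIX1 at -0.34, with a median of -0.78. RRP1B, a nucleolar relative of yeast Rrp1, had normalized counts of 24524, 24519 and 25178 in DMSO and 12457, 11534 and 11546 in Chelator (log2 fold change -1.06 ± 0.065, adjusted p = 2.75e-57). It was the large-subunit gene that passed the study's threshold. NOP16 went from 6665, 5813 and 6023 to 3156, 3188 and 3197 (-0.96 ± 0.080). BOP1, the scaffold of the PeBoW complex, went from 34903, 33997 and 37432 to 19182, 17563 and 18844 (-0.94 ± 0.071). RRS1, which helps to place the 5S RNP, went from 4634, 4085 and 4408 to 2219, 2267 and 2471 (-0.92 ± 0.087). In these 4 genes each Chelator library was below each DMSO library. In PeBoW, PES1 fell by 0.66 and WDR12 by 0.36 against 0.94 for BOP1 on the log2 scale. The value of WDR12 rests on the length offset, since its average effective length went from 1337 to 1008 bases, and it was -0.78 without the offset, where PES1 was at -0.63. NOC2L and NOC3L, which work as a pair on the large-subunit precursor, had log2 fold changes of -0.84 and -0.86. NOC2L was also among the 4 genes with the most RNA per length: its TPM was 497, 581 and 509 in DMSO and 311, 294 and 296 in Chelator. NOP2 and PPAN share 51.2% and 46.2% of their 31-base words with an overlapping or readthrough gene, NOC2L shares 12.2% with a pseudogene, and summing PPAN, NOP2, NOC2L, PWP2, NPM1 and BMS1 with such copies left 56 of the 60 genes lower and the median at -0.64.

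The snoRNP core proteins had the smallest median fall of the roles. Their median log2 fold change was -0.36, a fall of 22.1%, with 7 of 8 lower, none at the study's threshold and none among the 20 largest falls, of which 11 were small-subunit, 8 large-subunit and 1 shared. In box C/D snoRNPs, NOP58 went from normalized counts of 16860, 15434 and 17519 to 10916, 10097 and 10922 (log2 fold change -0.64 ± 0.076, adjusted p = 5.12e-16), or -0.38 without the length offset. Its partner NOP56 went from 19566, 15811 and 17783 to 10912, 12369 and 12735 (-0.56 ± 0.094). SNU13, which binds the kink-turn of the snoRNA, went from 10771, 9515 and 10908 to 8073, 8330 and 8153 (-0.35 ± 0.076), or -0.63 with trends in GC content and length removed. For these 3 the groups did not overlap. Fibrillarin (FBL), the methyltransferase, did not follow: its counts were 45388, 37928 and 46866 in DMSO and 45935, 42676 and 45207 in Chelator, with overlapping groups, a log2 fold change of 0.04 ± 0.087 and an adjusted p of 0.785. Where trends with GC content and transcript length were removed, FBL instead had a log2 fold change of -0.35 (adjusted p = 0.000206), so its direction changed with the fit.

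The box H/ACA proteins, which form a tight complex on each guide RNA, all fell. NHP2 went from 13280, 11575 and 12895 to 9767, 9437 and 9600 (log2 fold change -0.39 ± 0.075), or -0.18 without the length offset (adjusted p = 0.0396) and -0.73 with trends in GC content and length removed. GAR1 went from 7842, 6829 and 7568 to 5455, 5787 and 5908 (-0.37 ± 0.080), or -0.56 with those trends removed. NOP10, the smallest of them, went from 3940, 3735 and 3999 to 3023, 3226 and 3066 (-0.33 ± 0.076), and did not pass without the length offset (-0.12, adjusted p = 0.256). DKC1, the pseudouridine synthase that also holds telomerase RNA, went from 24790, 22648 and 24050 to 19762, 19584 and 20823 (-0.25 ± 0.068, adjusted p = 0.00102). Chelator values were below DMSO values throughout, and the 4 log2 fold changes ran from -0.39 to -0.25. NHP2 shares 23.7% of its 31-base words with RMND5B.

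Among the genes of both subunits and the abundant nucleolar proteins, 4 of 5 fell, with a median of -0.70. Nucleolin (NCL), which binds nascent pre-rRNA, had normalized counts of 137991, 133064 and 137742 in DMSO and 82773, 72082 and 74439 in Chelator (log2 fold change -0.83 ± 0.072, adjusted p = 2.25e-29). RRP12, an export factor of both subunits, went from 14375, 15006 and 14660 to 9496, 8324 and 8509 (-0.74 ± 0.075). NOLC1, a chaperone of snoRNPs, went from 37816, 36533 and 37373 to 24224, 21950 and 22710 (-0.70 ± 0.066). The helicase DDX21 went from 102447, 105357 and 107632 to 73298, 59995 and 61251 (-0.70 ± 0.085). No Chelator value reached a DMSO value in these 4. By TPM, NCL stood at 737, 843 and 747 in DMSO and at 466, 431 and 432 in Chelator.

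**Figure D3:**
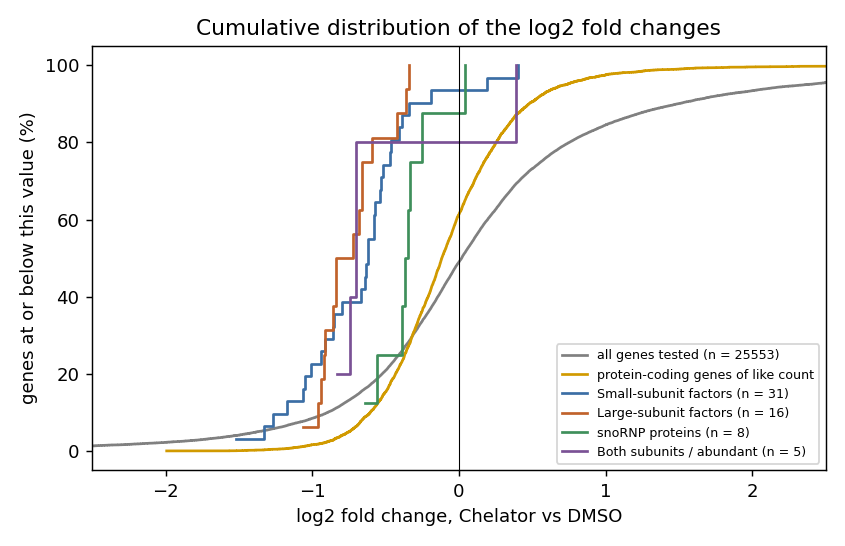
Cumulative share of genes (y axis, %) at or below each log2 fold change (x axis), for all 25553 genes with an adjusted p, for protein-coding genes in the same range of mean normalized count, and for the genes of each role. The median of the large-subunit factors is -0.78 and that of the snoRNP proteins -0.36, against 0.02 for all genes.

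Genes with longer transcripts had larger falls on the whole. Across the 60 genes, which share the same 6 libraries and are not independent replicates, Spearman's rho between log2 fold change and mean transcript length was -0.49. Over 6428 protein-coding genes of like count it was -0.2. The 20 genes with the shortest transcripts had a median of -0.57, the middle 20 of -0.60 and the longest 20, of 2398 bases and above, of -0.84. With trends in GC content and length removed over all genes these medians were -0.76, -0.69 and -0.86, smallest in the middle genes. In that fit rho was -0.27 and the medians were -0.94 for large-subunit factors, -0.78 for small-subunit factors and -0.59 for snoRNP proteins. That fit moved the median of all genes to -0.13, and the calls over all genes from 4447 lower and 4736 higher to 6336 lower and 3374 higher. Relative to its own all-gene median the 60 stood at -0.66 in both fits, the snoRNP proteins at -0.38 and -0.46, and the large-subunit factors at -0.80 and -0.81.

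WDR75, a UtpA subunit, had normalized counts of 5108, 4459 and 4985 in DMSO and 6138, 5640 and 7486 in Chelator, so the groups did not overlap and its log2 fold change was 0.40 ± 0.11 (adjusted p = 0.000774), but it was -0.46 ± 0.070 without the length offset and -0.97 ± 0.12 over transcripts of at least 500 bases. In Chelator most of its TPM came from a short transcript. WDR75-207 (chr2:189441493-189450922, plus strand, GRCh38) has 270 bases and joins the first exons of the gene to a 34-base exon (chr2:189448801-189448834) that the full-length WDR75-201 lacks and that is otherwise annotated in WDR75-203. Its reading frame holds 89 codons before the stop, against 830 in WDR75-201. It is printed here because it carried the change, with the 34-base exon in capitals.
WDR75-207: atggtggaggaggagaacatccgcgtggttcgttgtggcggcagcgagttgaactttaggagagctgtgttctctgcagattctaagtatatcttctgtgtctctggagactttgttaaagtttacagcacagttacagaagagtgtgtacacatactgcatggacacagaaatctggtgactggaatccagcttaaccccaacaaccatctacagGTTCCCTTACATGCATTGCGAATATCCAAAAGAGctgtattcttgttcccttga

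For WDR75-207 the estimated count was 0 throughout the DMSO group. As most of its sequence is shared with WDR75-201, such an estimate sets no upper limit on its true count. After chelation the estimates for WDR75-207 were 298, 383 and 595 counts. Because its effective length was 39 to 43 bases in DMSO and 62 to 75 bases in Chelator, these few counts became 57.8, 61.6 and 105 TPM. Its share of the gene's TPM went from 0% to 51.2%, 56.0% and 74.2%, a mean change of 60.5 percentage points. The gene was called for transcript usage (edgeR's diffSpliceDGE with Simes' method, adjusted p = 3.7e-10). However, WDR75-207 passed the count filter of that test through the Chelator libraries alone. It was not among the transcripts tested when a Chelator library was left out, so the call rests on the group where its estimates were high. Meanwhile the full-length WDR75-201 held 53.9, 50.4 and 50.6 counts per M library counts in DMSO and 39.4, 38.5 and 39.0 in Chelator, so it was lower in each Chelator library. The intron-retaining WDR75-205 (552 bases) fell from 45.8% ± 4.81 to 15.3% ± 9.29 of the TPM (SD, n = 3) and WDR75-204 (706 bases) from 19.7% ± 4.28 to 5.12% ± 0.464. TPM divides counts by the effective length, and the part of the difference between the groups in length minus effective length in these changes of share was not tested.

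NPM1, nucleophosmin, a shuttling chaperone and the gene of the set with the most RNA per length, showed the same pattern. Its normalized counts were 112389, 100010 and 124561 in DMSO and 153925, 136838 and 149717 in Chelator, without overlap, and its log2 fold change of 0.39 ± 0.089 (adjusted p = 7.48e-05) became -0.35 ± 0.069 without the length offset and -0.45 ± 0.072 over transcripts of at least 500 bases. NPM1-210, a 268-base retained-intron transcript, had 0, 0 and 697 counts in DMSO and 6119, 6905 and 7402 in Chelator, and its share of the gene's TPM was 0%, 0% and 11.3% against 45.0%, 44.5% and 49.2%. The full-length NPM1-201 held 1420, 1360 and 1380 counts per M library counts in DMSO and 1110, 1020 and 975 in Chelator. NPM1-210 is printed from the start codon of NPM1-201 (chr5:171387949-171390163, plus strand, GRCh38), with the 33 intronic bases that NPM1-201 lacks in capitals, as those bases set it apart.
NPM1-210: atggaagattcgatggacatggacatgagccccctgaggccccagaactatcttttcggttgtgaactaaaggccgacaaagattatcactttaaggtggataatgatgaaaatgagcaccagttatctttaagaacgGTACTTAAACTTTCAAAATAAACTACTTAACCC

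**Figure D4:**
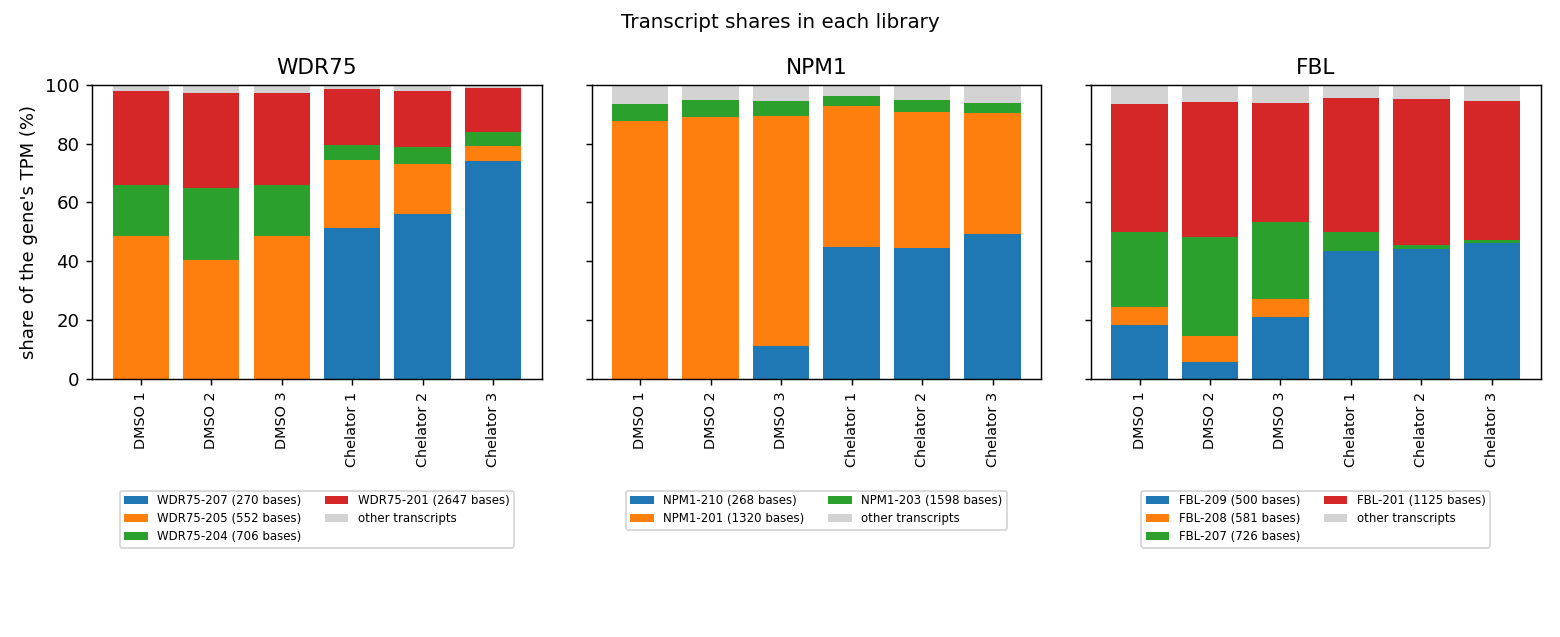
Share of the gene's TPM (y axis, %) taken by each transcript of WDR75, NPM1 and FBL in each of the 6 libraries, for transcripts with a mean share of at least 5% in a group. WDR75-207 goes from 0% in DMSO to between 51.2% and 74.2% in Chelator, and NPM1-210 from at most 11.3% to between 44.5% and 49.2%.

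Summed over the 60 genes, TPM was 9223, 10061 and 9617 in DMSO and 8031, 7944 and 8172 in Chelator. NPM1 made up 19.8% to 22.1% of this sum in DMSO and 32.3% to 33.9% in Chelator. Over transcripts of at least 500 bases the sum was 8994, 9812 and 9131 in DMSO and 6565, 6535 and 6501 in Chelator. With those transcripts alone, 58 of the 60 genes fell and 0 rose, and NOL11 of UtpA went from a log2 fold change of -0.34 to -0.61. This fit was chosen after the values above had been seen.

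**Figure D5:**
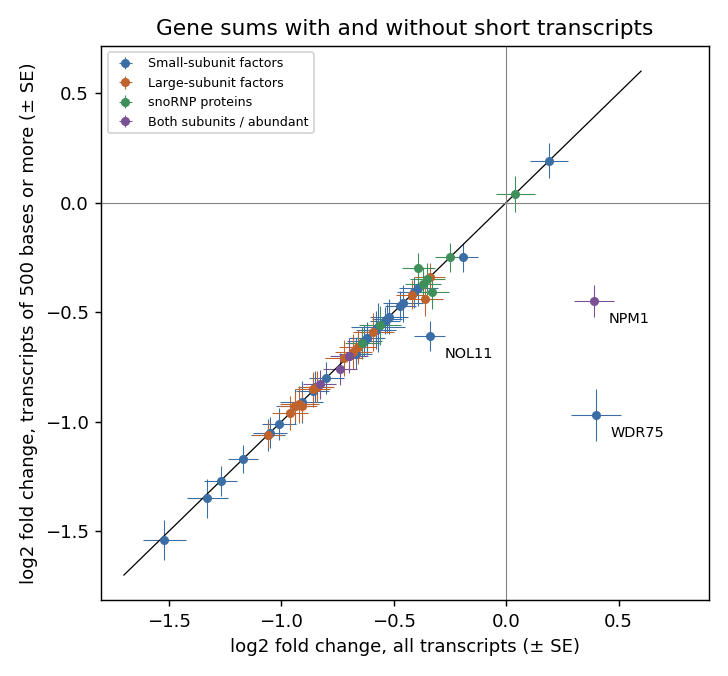
log2 fold change of each of the 60 genes from all transcripts (x axis) and from transcripts of at least 500 bases (y axis), with SE, on the line of equality where both are the same. WDR75 (0.40 and -0.97) and NPM1 (0.39 and -0.45) lie in the lower right, NOL11 lies below the line, and the other genes lie near it.

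Transcript usage could be tested in 55 of the 60 genes, and 12 (21.8%) were called, against 9.22% of the 11938 genes tested. Those 11938 genes were not matched to the 60 by count, and the part of count level in this difference was not tested. With limma's diffSplice 21 (38.2%) were called, against 26.7% of all genes. Without Chelator replicate 2 there were 7 (12.7%), against 5.18%, and without Chelator replicate 3 also 7, against 4.68%. Beside WDR75 and NPM1, the largest changes were in snoRNP proteins and a UtpA subunit. In FBL the 500-base FBL-209 took 18.4%, 5.80% and 21.1% of the TPM in DMSO and 43.4%, 44.1% and 46.3% in Chelator, while FBL-207 fell from 28.5% ± 4.48 to 2.92% ± 3.02 and the full-length FBL-201 had 43.2% ± 2.82 and 47.5% ± 2.01. In NOP58 the short NOP58-205, with no defined coding sequence, fell from 30.5% ± 2.44 to 7.40% ± 2.07, and the full-length NOP58-201, at 48.4% ± 2.26 in DMSO, was 11.6 percentage points higher in Chelator. The coding GAR1-201 fell from 38.9% ± 6.99 to 21.2% ± 1.90, and the retained-intron GAR1-204 had 25.8% ± 1.72 in DMSO and 37.6% ± 2.62 in Chelator. The retained-intron transcript UTP15-205 rose from 4.44% ± 1.83 to 21.1% ± 1.42. The adjusted p by Simes' method was 5.27e-08 for FBL, 7.08e-06 for NOP58, 0.0197 for GAR1 and 0.0136 for UTP15.

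Of the 60 genes, 8 hold snoRNA or small Cajal body RNA genes on their own strand, 26 in all, against 1.61% of 15914 protein-coding genes with counts. NOP56 holds 5 (SNORD110, SNORA51, SNORD86, SNORD56 and SNORD57), GNL3 6, NOP58 4, NCL and WDR43 3 each, DKC1 and PPAN 2 each and NOL11 1. All 8 hosts fell, which is near the share of the whole set, where 56 of 60 fell. Of protein-coding genes of like count 41.2% fell. The log2 fold changes of the 8 hosts were -0.83 for NCL, -0.85 for WDR43, -0.72 for PPAN, -0.68 for GNL3, -0.64 for NOP58, -0.56 for NOP56, -0.34 for NOL11 and -0.25 for DKC1.

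Promoter sequences, 250 bases before the start from RefSeq on GRCh38.p14, were found by symbol for 49 of the 60 genes and searched on both strands. The E-box CACGTG was in 7 (14.3%), against 8.55% of 12453 expressed protein-coding genes and 6.49% of 27305 promoters. The ETS-type motif CCGGAAG was in 17 (34.7%), against 14.2% and 8.82%. The motifs do not overlap each other by their letters, and a match is a description only. The median log2 fold change was -0.64 for the 7 with CACGTG and -0.62 for the 42 without. It was -0.62 for both the 17 with CCGGAAG and the 32 without. Differences between genes with and without a motif were not tested. Those printed are the small-subunit genes of largest fall and the snoRNP gene that hold a motif and no annotated exon in the window, with motifs in capitals: UTP20 (chr12:101279855-101280104, plus strand), RRP9 (chr3:51941905-51942154, minus strand) and FBL (chr19:39846380-39846629, minus strand).
UTP20: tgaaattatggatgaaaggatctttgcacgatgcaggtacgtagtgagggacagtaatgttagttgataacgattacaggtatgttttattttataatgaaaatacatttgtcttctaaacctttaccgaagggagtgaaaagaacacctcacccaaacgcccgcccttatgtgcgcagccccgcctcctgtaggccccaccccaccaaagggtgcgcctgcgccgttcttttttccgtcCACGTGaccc
RRP9: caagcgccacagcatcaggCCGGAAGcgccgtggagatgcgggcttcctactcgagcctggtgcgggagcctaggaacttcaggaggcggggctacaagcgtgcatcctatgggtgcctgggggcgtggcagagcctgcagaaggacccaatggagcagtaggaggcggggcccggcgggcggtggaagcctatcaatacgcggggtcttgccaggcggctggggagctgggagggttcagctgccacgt
FBL: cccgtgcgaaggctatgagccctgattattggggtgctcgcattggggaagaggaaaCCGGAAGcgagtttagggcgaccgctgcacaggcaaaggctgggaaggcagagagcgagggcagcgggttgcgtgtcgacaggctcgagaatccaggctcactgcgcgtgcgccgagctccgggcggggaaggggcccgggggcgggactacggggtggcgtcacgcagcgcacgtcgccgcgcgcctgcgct

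Most other genes of the pathway fell too. Of 117 other genes of ribosome assembly, 88 fell, 4 rose and 25 did not pass, with a median log2 fold change of -0.46, where 17.4% of all genes and 41.2% of protein-coding genes in the count range of the 60 fell. Other small-subunit factors had 23 of 30 lower, led by NOP9 (from 10826, 11373 and 10985 normalized counts to 5021, 4382 and 4799, log2 fold change -1.22) and the helicase DHX33 (-0.89). Other large-subunit factors had 41 of 52 lower, led by URB2 (from 7707, 8267 and 7764 to 3438, 3357 and 3417, -1.22), the nucleolar Myb-binding protein MYBBP1A (-1.13 ± 0.065, named after its values were seen) and the giant ATPase MDN1 (-1.13 ± 0.29, both SE), whose DMSO values of 19508, 33299 and 18971 were uneven. SnoRNP assembly factors had 9 of 12 lower, with NUFIP1 at -0.96 and the cap hypermethylase TGS1 at -0.57. The RNA exosome and its cofactors had 9 of 13 lower, with EXOSC6 at -0.91 and EXOSC3 at -0.67, and the proteins of RNase MRP and P 6 of 10, with POP1, their largest subunit, at -1.46 (from 5347, 4972 and 5046 to 2079, 1654 and 1868) and RPP40 at -0.79. The 4 that rose, named after their values were seen, were RIOK3 and RSL24D1 (0.42 each), TSR2 (0.38) and EXOSC1 (0.30). With trends in GC content and length removed, EXOSC1 did not pass (0.12, DESeq2 adjusted p = 0.293). In that fit TSR2 was at 0.23, RIOK3 at 0.43 and RSL24D1 at 0.59.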

How the data were processed

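PolyA-selected RNA of the 6 libraries was sequenced on an Illumina platform, with paired ends. The authors quantified them with Salmon 1.10.2 (per the submitters' processing notes), and the deposited files give estimated counts and TPM for 252045 transcripts. The annotation, the bias correction and any strand setting are not given in the sources used here. Deposited lengths and effective lengths were used as such. Transcripts were matched to GENCODE v44 on GRCh38, and the 433 without a match (at most 0.15% of counts) were left out. Estimated counts were summed per gene and rounded. Genes with a total above 10 (26074) entered DESeq2 1.42.0 (R 4.3.3), with median-ratio size factors and average transcript length as an offset. The Wald test and thresholds follow the study, and the offset was chosen here. A gene passed at a Benjamini-Hochberg adjusted p under 0.05, and was called at the study's threshold if the absolute log2 fold change was also above 1. The normalized counts printed are counts divided by size factor and offset. Transcript usage was tested with edgeR 4.0.16 (diffSpliceDGE, transcripts with 10 counts in 3 libraries) and called at an adjusted Simes p under 0.05 with a share of TPM changed by more than 5 percentage points. limma 3.58.1 gave an alternative. Models were tested on simulated data. Alternatives covered scaling, filters, GC content and length, the replicate numbers as a block and leaving out each library. Shared sequence was counted in words of 31 bases.

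The genes and lists were chosen with earlier results of these data known. Values are printed for every snoRNP protein, for the 4 largest passed changes of each other role, for the 4 genes of highest TPM, for genes not passed or higher, and for WDR75. Of the other pathway genes, the 2 with the largest passed change per list are named. One listed gene had no match by name. Marker genes were read as TPM, and some listed markers are not reported here. Depth was 78.6 to 101.1 M counts per library, and intervals were not needed for shares of TPM.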

Additional observations from a re-analysis of the deposited data

How the results depend on the processing

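Of the 60 genes, 54 fell and passed under all 17 alternatives. The number lower was 55 to 58 and the number of other pathway genes lower 83 to 99. With trends in GC content and length removed, alone or with the replicate block, 18 genes instead of 8 were called at the study's threshold (without the block, 4.29% of all genes against 2.46%), and the medians were -0.79 for all 60 genes, -0.78 for small-subunit factors, -0.94 for large-subunit factors and -0.59 for snoRNP proteins, where the median of all genes was -0.13. FBL then had a log2 fold change of -0.35, and the cause was not tested. Centred on the mean log2 ratio, the medians were -0.71 for the 60 and -0.69 for small-subunit factors. Without the length offset the small-subunit median was -0.70, 1 gene was higher, and WDR75 and NPM1 had log2 fold changes of -0.46 and -0.35. Over transcripts of at least 500 bases, a fit chosen after seeing the data, 0 genes were higher and these values were -0.97 and -0.45. The cause of these changes was not tested. edgeR's quasi-likelihood test lost UTP6 (-0.14, adjusted p = 0.0623), and RCL1 passed in 4 alternatives.

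Called for transcript usage were 21 of the genes with limma (26.7% of all genes) and 7 to 9 with a library left out, the lowest without Chelator replicate 2 and without Chelator replicate 3, against 12. WDR75-207 was not among the transcripts tested when a Chelator library was left out or with transcripts of at least 500 bases, so no value is given there. In the other alternatives its change of 60.5 points could not move, since shares of TPM do not depend on the test and its DMSO shares were all 0%. Leaving out a library gave medians of the 60 genes from -0.69 to -0.62. Same-numbered samples of both groups correlated at -0.018, 0.085 and 0.036, and differently numbered ones at -0.088 to 0.058. With 3 libraries per group these values cannot show whether the numbers pair the samples. With the replicate block 56 genes were lower, 2 higher and 8 called, with a median of -0.64, the other pathway genes lower numbered 86 and 10 genes were called for usage. Effective lengths of short transcripts differed between the groups, and the part of this in their changes was not tested.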
